A study of Sus scrofa with 9 samples.

Results

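The genes described here are 10 genes of the smooth muscle contractile apparatus, ACTA2, TAGLN, CNN1, MYH11, SMTN, MYLK, CALD1, TPM2, LMOD1 and DES, measured by RNA sequencing in the left ventricle of the newborn pig. They were chosen by name, as the rows of the deposited table that carry these symbols, with earlier results of these data known. Their counts beside all genes tested are therefore descriptions and no test of the set. Each of the 10 had a row, out of 22629 rows, and each was among the 12268 genes that reached 1 TPM in at least 3 libraries and were tested. The series holds 3 groups of 3 libraries, from wild type and untreated pigs on postnatal day 0, day 7 and day 15. The labels name replicates 4, 5 and 6 at day 0, replicates 2, 5 and 6 at day 7 and replicates 1, 2 and 6 at day 15, and values below are given in that order. Whether an age's replicates are different pigs is not said in the labels, and p-values here speak only of the spread among these libraries, which may be technical.

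Smooth muscle shortens when myosin filaments pull on actin filaments, after calcium-bound calmodulin switches on a kinase that phosphorylates the myosin light chain. A set of actin-bound proteins, among them calponin, caldesmon, transgelin and tropomyosin, sits on those filaments and tunes the pull, and desmin filaments tie the apparatus together. In the heart these genes mark the walls of the coronary vessels, and several have other sources. Desmin and beta-tropomyosin are also made by striated muscle, caldesmon, tropomyosin and myosin light chain kinase by many cell types that are not muscle, and smooth muscle actin and transgelin appear for a time in the heart muscle of the mouse embryo. Each library is a bulk sample of ventricular wall, so fewer cells of a type and less RNA per cell cannot be told apart.

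Values are in TPM, a share of each library's RNA corrected for transcript length, and the depth behind them is unknown. Each library listed 11290 to 12164 genes at 1 TPM or more. The most abundant row of the table took 24.0% to 46.0% of a library, and mitochondrially encoded genes took 16.5% to 24.6%. The summed level of 10 heart muscle markers was 42873 to 62140 TPM per library. Fold changes are differences of log2(TPM + 1), given with the standard error of a limma model over all 9 libraries, and p-values are adjusted over all genes tested, with a threshold of 0.05. A change on this scale understates that of a gene with few TPM.

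The 10 genes spanned a wide range of levels. At every age DES and TPM2 led, with means of 1644 to 2480 TPM and of 1341 to 2224 TPM, and stood 36th and 40th by mean level among the rows of the table. TAGLN and ACTA2 followed at every age, and the library values of this pair overlapped each time. LMOD1 was the lowest at each age and stood apart from its neighbour. The position of CNN1 differed with age. By mean level it came after SMTN and CALD1 at day 15, with 28.1 TPM and libraries that overlapped those of CALD1, and before them at day 0, with 133 TPM and libraries that overlapped those of ACTA2.

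**Figure D1:**
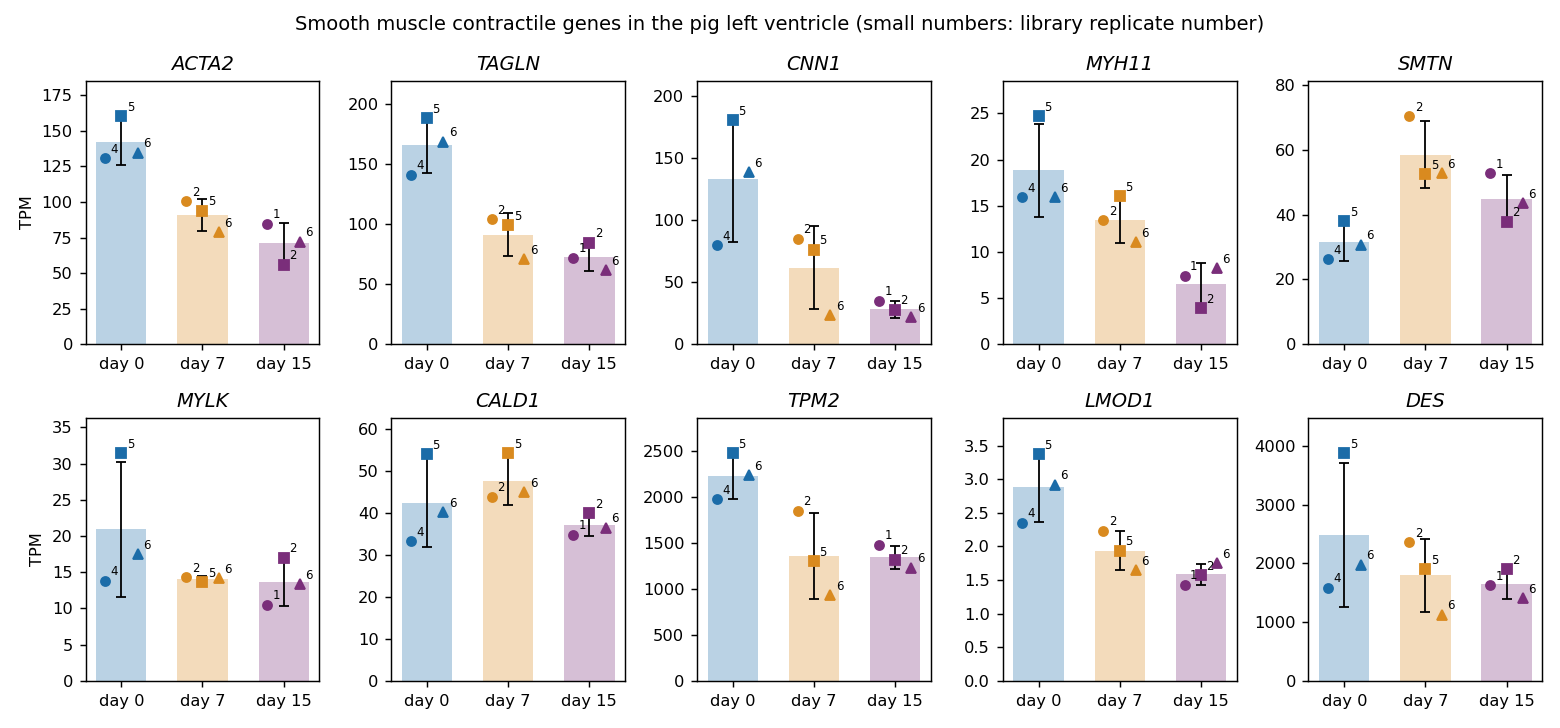
TPM of the 10 smooth muscle contractile genes in each library at day 0, day 7 and day 15 (points, with replicate numbers), with the mean of the 3 libraries of an age (bars) and its SD (error bars); each panel has its own axis from 0. ACTA2, TAGLN, CNN1, MYH11, TPM2 and LMOD1 have all 3 day 15 libraries under all 3 day 0 libraries, and SMTN is highest at day 7.

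Among the genes of the contractile filaments, ACTA2, the actin isoform of vascular smooth muscle, had 131, 160 and 135 TPM in the day 0 libraries, 100.4, 93.9 and 78.5 TPM in the day 7 libraries, and 84.6, 55.9 and 72.0 TPM in the day 15 libraries. Its means were 142 ± 15.9, 91.0 ± 11.2 and 70.8 ± 14.4 TPM (SD, n = 3 libraries each). The day 0 libraries stood above all 6 others, and the day 7 and day 15 libraries overlapped. MYH11, the smooth muscle myosin heavy chain, had 15.9, 24.7 and 15.9 TPM at day 0, 13.4, 16.0 and 11.0 TPM at day 7, with 7.40, 3.89 and 8.25 TPM at day 15. Here the first 2 ages overlapped and all 3 day 15 libraries were below every earlier library.

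TPM2, the beta-tropomyosin that lies along the actin filament, had 1971, 2468 and 2232 TPM at day 0, 1846, 1296 and 927 TPM at day 7, with 1479, 1314 and 1231 TPM at day 15. The day 0 libraries were the highest 3, and the day 7 libraries spread on both sides of those of day 15. LMOD1, leiomodin 1, which starts new actin filaments in smooth muscle, had 2.35, 3.37 and 2.92 TPM at day 0, 2.23, 1.94 and 1.65 TPM at day 7, with 1.43, 1.57 and 1.75 TPM at day 15. It was highest in the 3 day 0 libraries, at levels near the filter on low values.

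Of the proteins that bind and tune actin, TAGLN, transgelin or SM22-alpha, an early marker of smooth muscle, had 141, 188 and 169 TPM at day 0, 104, 99.1 and 70.6 TPM at day 7, with 72.2, 84.4 and 61.7 TPM at day 15. The day 0 libraries stood above all others and the later ages overlapped. CNN1, calponin 1, which inhibits the myosin motor on actin and marks mature smooth muscle, had 80.0, 181 and 139 TPM at day 0, 85.1, 76.3 and 23.2 TPM at day 7, with 35.0, 27.7 and 21.7 TPM at day 15. Its day 7 libraries were the most uneven of the set, with replicate 6 at the level of day 15 and replicate 2 above the lowest day 0 library. The ratio of the highest to the lowest of the 9 libraries was 8.35 for CNN1, the largest among the 10 genes, and 6.34 for MYH11.

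CALD1, caldesmon, which binds actin and holds back myosin, had 33.2, 53.9 and 40.2 TPM at day 0, 43.8, 54.2 and 45.0 TPM at day 7, with 34.8, 39.9 and 36.4 TPM at day 15. Day 0 covered nearly the whole range of the later ages, and the ratio of the highest to the lowest library, 1.63, was the smallest of the 10 genes. SMTN, smoothelin, a cytoskeletal protein of contractile smooth muscle, had 26.2, 38.0 and 30.8 TPM at day 0, 70.4, 52.5 and 52.8 TPM at day 7, with 52.8, 37.8 and 43.6 TPM at day 15. It was the only gene of the 10 whose 3 day 7 libraries were all above the 3 of day 0, and day 15 overlapped both other ages.

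MYLK, myosin light chain kinase, the enzyme that starts contraction, had 13.8, 31.4 and 17.5 TPM at day 0, 14.3, 13.6 and 14.2 TPM at day 7, with 10.5, 17.0 and 13.4 TPM at day 15. The 3 ages overlapped, and replicate 5 of day 0 stood well above the other 8 libraries. DES, desmin, the intermediate filament protein of all muscle types, had 1584, 3876 and 1980 TPM at day 0, 2354, 1905 and 1127 TPM at day 7, with 1627, 1903 and 1403 TPM at day 15. The ages overlapped here too, and the highest value was again in replicate 5 of day 0.

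The first postnatal week was addressed by setting day 7 against day 0. SMTN rose, while TAGLN, TPM2 and ACTA2 fell, and the other 6 genes did not pass the test. In log2 terms SMTN was 0.87 ± 0.20 higher at day 7 (limma, adjusted p = 0.0158), with a mean of 58.6 ± 10.2 TPM at day 7 and 31.7 ± 5.91 TPM at day 0. TAGLN fell by 0.87 ± 0.20 (limma, adjusted p = 0.0161), to a mean of 91.3 ± 18.1 TPM at day 7, against 166 ± 23.7 TPM at day 0. TPM2 fell by 0.76 ± 0.23 (limma, adjusted p = 0.0394) and ACTA2 by 0.64 ± 0.19 (limma, adjusted p = 0.0397).

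The count of 4 genes out of 10, 1 higher and 3 lower, stands beside 16.6% of all genes tested that passed in this comparison, 7.67% higher and 8.88% lower. For 5 of the 10 the library values at day 7 and day 0 did not overlap, as for 41.4% of all genes tested. SMTN was higher at day 7, as 17.6% of all genes tested were, and ACTA2, TAGLN, TPM2 and LMOD1 were lower, as 23.8% were. The median change of the 10 genes was -0.45, and that of all genes tested was -0.04. CNN1 had the largest difference, -1.22 ± 0.43, and missed the threshold (limma, adjusted p = 0.0676). Without replicate 6 of day 7, its difference was -0.64. LMOD1 was at -0.40 (limma, adjusted p = 0.129), MYLK at -0.46 (0.235), MYH11 at -0.44 (0.254), DES at -0.42 (0.380) and CALD1 at 0.19 (0.523).

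These 4 calls changed with the libraries used, and so did the number of calls over all genes. That of ACTA2 was lost on leaving out any of the day 7 or day 0 libraries, or replicate 6 of day 15, with limma adjusted p-values of 0.0624 to 0.119. The call of TPM2 was lost without any day 0 library, without replicates 5 and 6 of day 7 and without replicate 6 of day 15 (limma, adjusted p = 0.0552 to 0.131). The call of TAGLN was lost without replicate 6 of day 7 (limma, adjusted p = 0.0541) and without replicate 6 of day 0 (0.0736). That of SMTN was lost without replicate 2 of day 7 (limma, adjusted p = 0.0591) and without replicates 4 or 6 of day 0 (0.0728 and 0.0709). The number of these genes called was 0 without replicate 6 of day 0, and 1 without its replicate 4 or without replicate 6 of day 7. It was 2 without replicate 5 of day 0, replicate 2 or 5 of day 7 or replicate 6 of day 15. Over all 12268 genes tested, 941 rose and 1090 fell with all libraries. Without replicate 6 of day 0 these were 196 and 196, and without its replicate 4 they were 226 and 396. Without replicate 6 of day 7 they were 513 and 354, and without replicate 5 of day 0 they were 1260 and 1215. Leaving out replicate 2 or 5 of day 7 or replicate 6 of day 15 gave 500 and 629, 478 and 765, and 720 and 787.

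**Figure D2:**
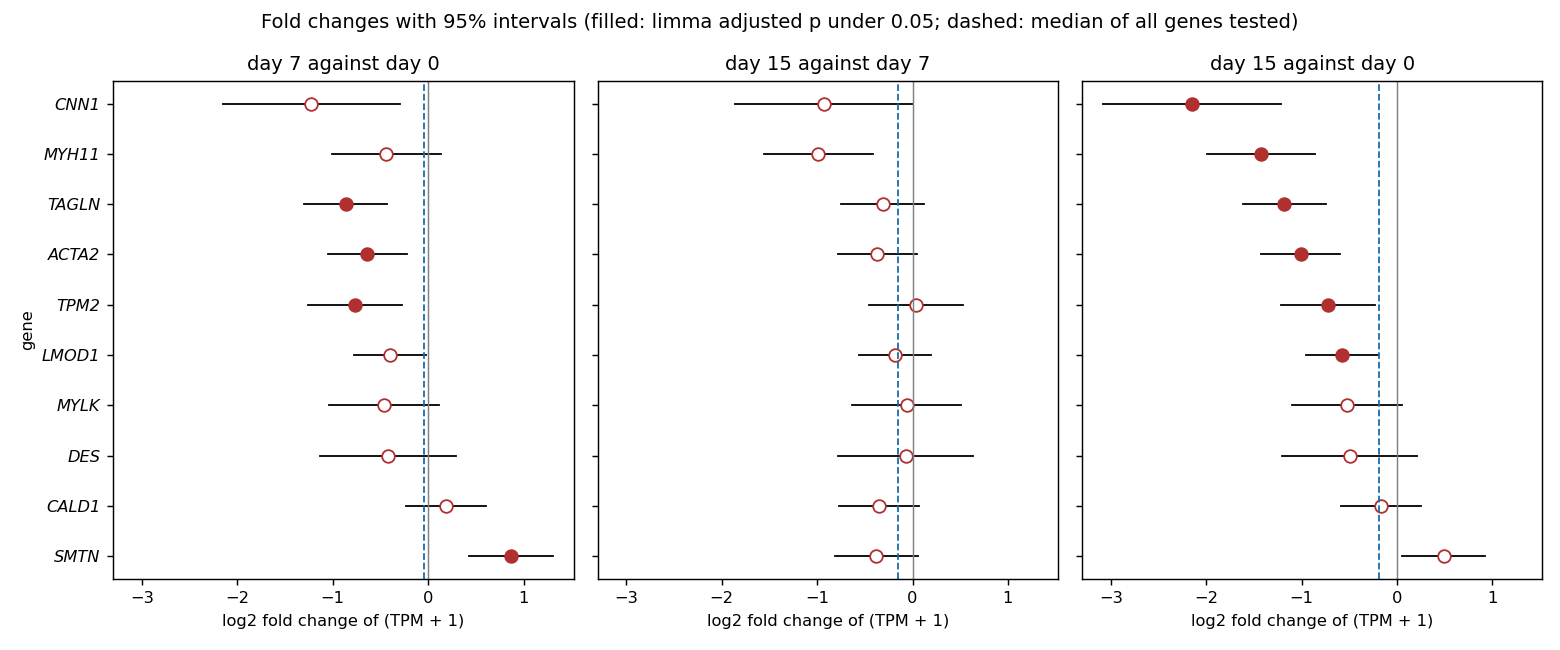
Differences of mean log2(TPM + 1) for the 10 genes in the 3 comparisons of ages, with 95% confidence intervals from the limma model (horizontal lines); filled points passed an adjusted p of 0.05, and the dashed line is the median of all genes tested. SMTN lies to the right and TAGLN, TPM2 and ACTA2 to the left at day 7 against day 0, no gene is filled at day 15 against day 7, and 6 genes are filled on the left at day 15 against day 0.

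For the second week, day 15 was set against day 7, and none of the 10 genes passed the test (limma), where 0.171% of all genes tested did. MYH11 had the largest difference, with 6.51 ± 2.31 TPM at day 15 and 13.5 ± 2.50 TPM at day 7 (SD, n = 3 each), and was the single gene of the 10 with an unadjusted p under 0.05. Its difference was -0.99 ± 0.26, with an unadjusted p of 0.00258 in limma and an adjusted p of 0.186. CNN1 was at -0.93 ± 0.43 (limma, unadjusted p = 0.0507, adjusted p = 0.392). MYH11 and CALD1 were the 2 genes whose day 15 libraries were all under those of day 7, as 17.9% of all genes tested were.

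The remaining differences between day 15 and day 7 were SMTN at -0.38, ACTA2 at -0.37, CALD1 at -0.35, TAGLN at -0.31, LMOD1 at -0.18, DES at -0.07, MYLK at -0.06 and TPM2 at 0.04, with limma adjusted p-values of 0.435 to 0.961. The median of the 10 genes was -0.33 and that of all genes tested -0.15. Whether the second step differed from the first was tested directly, as the difference of the 2 differences. None of the 10 genes passed (limma), beside 1.92% of all genes tested. SMTN came closest, at -1.25 ± 0.35 (limma, unadjusted p = 0.00357, adjusted p = 0.0901), with the day 7 mean above both others. Without replicate 5 of day 0 it passed, at -1.39 (limma, adjusted p = 0.0408).

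Over the 2 weeks together, day 15 was set against day 0. TAGLN, MYH11, ACTA2, CNN1, LMOD1 and TPM2 fell, and SMTN, MYLK, DES and CALD1 did not pass the test. CNN1 fell by 2.15 ± 0.43 in log2 terms (limma, adjusted p = 0.00640), to 28.1 ± 6.68 TPM at day 15, against 133 ± 50.6 TPM at day 0, so that the day 15 mean was 21.1% of that of day 0. MYH11 fell by 1.42 ± 0.26 (limma, adjusted p = 0.00462), to 34.6% of its day 0 mean of 18.8 ± 5.05 TPM. TAGLN fell by 1.18 ± 0.20 (limma, adjusted p = 0.00335) to 43.8%, with 72.8 ± 11.4 TPM at day 15.

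ACTA2 fell by 1.01 ± 0.19 (limma, adjusted p = 0.00515) to 49.9% of its day 0 mean. TPM2 fell by 0.73 ± 0.23 (limma, adjusted p = 0.0362), with 1341 ± 126 TPM at day 15 and 2224 ± 249 TPM at day 0. LMOD1 fell by 0.58 ± 0.17 (limma, adjusted p = 0.0310), with 1.58 ± 0.158 TPM at day 15 and 2.88 ± 0.510 TPM at day 0, which is 55.0% on the TPM scale. For each of these 6 genes the 3 day 15 libraries were all below the 3 of day 0.

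SMTN differed from the rest in sign, at 0.49 (limma, adjusted p = 0.0935), with a day 15 mean of 44.8 ± 7.58 TPM, 141% of that of day 0. MYLK was at -0.53 (limma, adjusted p = 0.162), with an interval of -1.10 to 0.05. DES was at -0.49 (limma, adjusted p = 0.282), with an interval of -1.20 to 0.22, and CALD1 at -0.17 (limma, adjusted p = 0.553), with an interval of -0.59 to 0.26. These 95% intervals span both no change and falls as large as some of those that passed.

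The count of 6 lower and 0 higher out of 10 stands beside 23.9% of all genes tested that passed, 5.53% higher and 18.4% lower. The same 6 genes were the ones whose libraries did not overlap, all lower, where 30.5% of all genes tested were lower without overlap. The median of the 10 genes was -0.65 and that of all genes tested -0.19. Day 0 serves in both this comparison and that of day 7, so they share its 3 libraries. In an F test over the 3 ages, SMTN, MYH11, ACTA2, TPM2, CNN1 and TAGLN passed, that is 6 of 10, and 22% of all genes tested did. The mean in TPM fell at each step in 8 of the 10 genes, all but SMTN and CALD1, and in 37.4% of all genes tested. In TPM2 the second step was from 1356 to 1341 TPM, and in MYLK from 14.0 to 13.6 TPM. On the log2 scale TPM2 did not fall at that step.

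TPM is a share of the library, and another scaling moves the zero of every comparison. With median-of-ratios scaling the median of all genes tested at day 15 against day 0 was 0.01, against -0.19 with TPM as deposited, and the share of called genes that rose was 49.3%, against 23.1%. At day 7 against day 0 that share was 46.3% with TPM as deposited and 65.6% with TPM rescaled without mitochondrial genes and the 20 most abundant genes. Relative to the median of all genes, the median of the 10 genes at day 15 against day 0 was -0.46 with TPM as deposited, -0.46 with median-of-ratios scaling and -0.51 with the rescaled TPM. SMTN passed as higher at day 15 under median-of-ratios scaling (0.72, limma, adjusted p = 0.0473) and with the rescaled TPM (0.75, adjusted p = 0.0321).

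The falls of ACTA2, TAGLN and MYH11 from day 0 levels at day 15 passed under each of 18 alternatives, with limma adjusted p-values of at most 0.0444, 0.0247 and 0.046. That of CNN1 missed the threshold under 1 of them, the test of all rows with no filter on low values (limma, adjusted p = 0.0624). The call of TPM2 was lost under 10 alternatives, among them leaving out any of the day 15 or day 0 libraries (limma, adjusted p = 0.0534 to 0.12). LMOD1 lost its call under 7 of 17, among them leaving out replicate 1 or 6 of day 15 (limma, adjusted p = 0.0709 and 0.0756) or replicate 5 or 6 of day 0 (0.0761 and 0.104).

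The 3 libraries of day 0 had a fixed order over these genes. Replicate 5 was the highest and replicate 4 the lowest of its age for 10 of 10 genes, where replicate 5 was the highest for 34.5% of all genes tested and replicate 4 the lowest for 59.7%. The summed level of the 10 genes was 3998, 7025 and 4761 TPM in the day 0 libraries, and without DES and TPM2 it was 444, 681 and 549 TPM. At day 7, replicate 6 was the lowest for 7 genes and replicate 2 the highest for 8, where these libraries were lowest for 54.5% and highest for 29.2% of all genes tested. At day 15 each library was the highest for 2 to 4 genes.

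Of the erythroid markers, HBB and ALAS2 passed the filter on low values, and both were highest of their age in replicate 5 of day 0. HBB, the beta-globin chain, stood at 1227 TPM there, against 504 and 374 TPM in the other day 0 libraries. SLC4A1 and AHSP, at about 1 TPM or less in each of them, were not raised in replicate 5. The part of red cell RNA in the order of the smooth muscle genes was not tested. Without replicate 5 of day 0, 4 of the 10 genes passed at day 15 against day 0, namely TAGLN, MYH11, ACTA2 and CNN1. TPM2 (limma, adjusted p = 0.0837) and LMOD1 (0.0761) did not. Over all genes tested, 969 rose and 2263 fell in that fit, against 678 and 2255 with all libraries. The difference of MYLK at day 15 against day 0 was then -0.20 and that of DES -0.12, less than with all libraries.

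**Figure D3:**
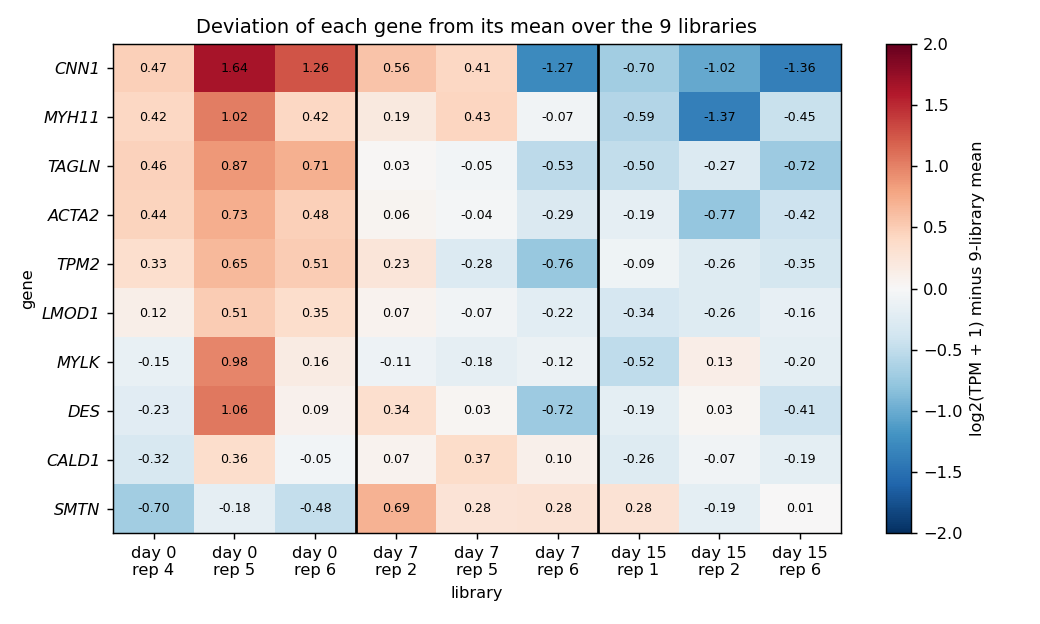
Deviation of log2(TPM + 1) from the mean over the 9 libraries, for each of the 10 genes (rows) in each library (columns, by age and replicate number); red is above and blue below the mean, with the value in each cell. Replicate 5 of day 0 holds the highest value of most rows, and CNN1 spans the widest range, with -1.36 in replicate 6 of day 15 and 1.64 in replicate 5 of day 0.

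Each gene was also set against a related gene in the same library, as a ratio of (TPM + 1), in which the library total largely cancels except for genes near 1 TPM such as LMOD1. For 7 pairs the ratio over the 3 ages was tested with an exact permutation test over every assignment of the 9 libraries to the ages, whose smallest possible p is 0.00357, and adjusted over the 7 pairs. No pair passed the threshold after adjustment, and 3 had an unadjusted exact p under 0.05. The log2 ratio of CNN1 to CNN3, the acidic calponin of many non-muscle cells, averaged 1.85 ± 0.302, 0.32 ± 0.761 and -0.36 ± 0.514 at day 0, day 7 and day 15 (SD, n = 3 each; exact permutation p = 0.0107, adjusted p = 0.075). CNN1 thus stood 0.600 to 1.18 times as high as CNN3 in the day 15 libraries and 2.92 to 4.37 times as high in the day 0 libraries.

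LMOD1 relative to LMOD2, the leiomodin of striated muscle, averaged -4.08 ± 0.173, -5.05 ± 0.352 and -5.09 ± 0.400 in log2 terms (exact permutation p = 0.0286, adjusted p = 0.0833). All day 15 libraries were below those of day 0. DES relative to VIM, vimentin, the intermediate filament of fibroblasts and endothelium, was 3.08 ± 0.482, 2.04 ± 0.156 and 2.98 ± 0.0831 (exact permutation p = 0.0357, adjusted p = 0.0833), with its lowest 3 values at day 7. VIM itself had 215, 311 and 295 TPM at day 0, 512, 514 and 276 TPM at day 7, with 218, 227 and 176 TPM at day 15.

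The ratios of ACTA2 to other muscle actins did not pass. The log2 ratio of ACTA2 to ACTC1, the cardiac actin, averaged -6.61 ± 0.185, -6.06 ± 0.312 and -5.90 ± 0.686 (exact permutation p = 0.179, adjusted p = 0.238), and all day 15 libraries were above those of day 0. Its ratio to ACTG2, the enteric smooth muscle actin, was 3.13 ± 0.619, 3.82 ± 0.296 and 3.96 ± 0.542 (exact permutation p = 0.175, adjusted p = 0.238). ACTC1 had 2952, 4609 and 5540 TPM at day 15 and 11841, 14745 and 15356 TPM at day 0. The proteins of the muscle actins are nearly identical, and the sources used here do not say how reads common to their transcripts were divided. The part of cardiac actin reads in the values of ACTA2 and ACTG2 was not tested.

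TPM2 relative to TPM1, the alpha-tropomyosin that dominates in heart muscle, was -1.48 ± 0.111, -1.80 ± 0.254 and -1.62 ± 0.197 (exact permutation p = 0.204, adjusted p = 0.238). MYLK relative to MYLK3, the cardiac myosin light chain kinase, was -0.47 ± 0.828, -0.86 ± 0.241 and -0.88 ± 0.333 (exact permutation p = 0.721). TAGLN2 and MYH10, the planned partners of TAGLN and MYH11, were not analysed here. MYH9, a non-muscle myosin heavy chain, was taken for MYH10 after its values had been seen. Relative to it MYH11 averaged -1.57 ± 0.747, -2.58 ± 0.287 and -3.01 ± 0.395 (exact permutation p = 0.00714, not adjusted), with all day 15 libraries below those of day 0.

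**Figure D4:**
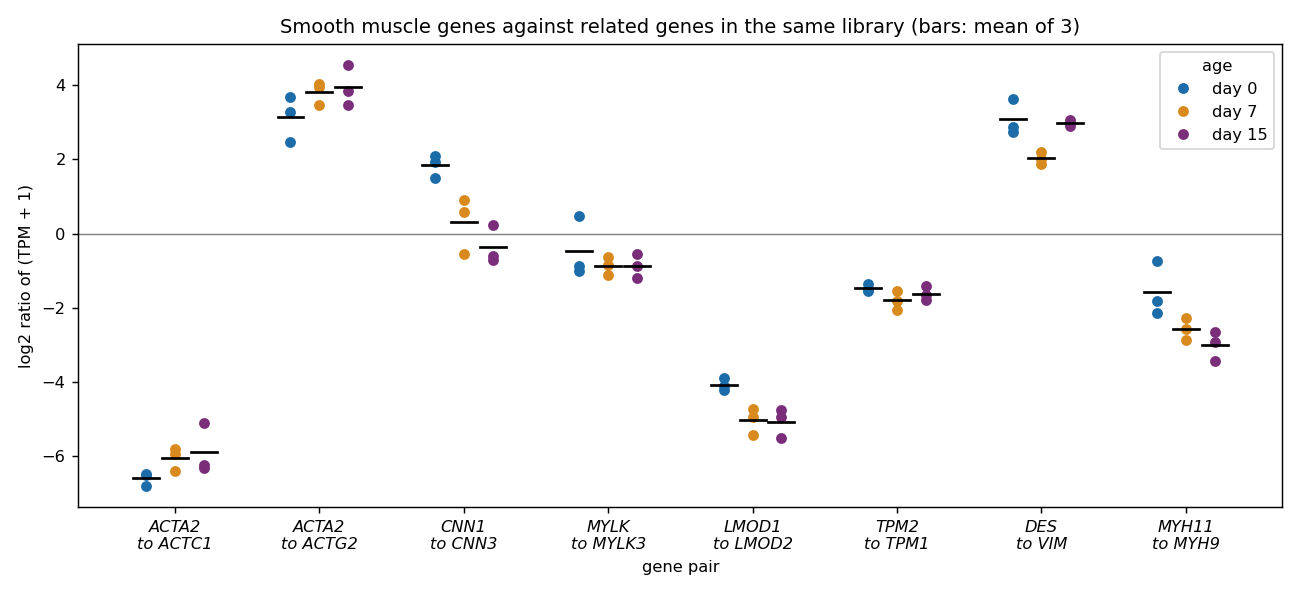
Log2 ratio of (TPM + 1) of a smooth muscle gene to that of a related gene in the same library, for each library (points, coloured by age) with the mean of 3 libraries (bars). The ratio of CNN1 to CNN3 lies between -0.71 and 0.23 at day 15 and between 1.51 and 2.10 at day 0, and that of DES to VIM has its 3 lowest values at day 7.

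Regulators linked to serum response factor and myocardin were followed in the same libraries. Not all of them switch the contractile genes on, and the list holds KLF4, ELK1 and FOXO4 beside activators. Serum response factor binds a short element shared by many smooth muscle promoters, and myocardin is its muscle-specific partner. Of 16 regulators of this kind that were tested, 0 rose and 3 fell at day 15 against day 0, with a median of -0.31. The share that fell was close to the 18.4% of all genes tested, so the count does not set the list apart. SRF had 20.7, 35.4 and 32.3 TPM at day 15 and 69.2, 56.3 and 86.8 TPM at day 0, a fall of 1.25 ± 0.27 (limma, adjusted p = 0.00861). MYOCD, myocardin, had 7.00, 8.48 and 8.18 TPM at day 15 and 19.2, 11.1 and 24.3 TPM at day 0, a fall of 1.05 ± 0.25 (limma, adjusted p = 0.0115). GATA6, a transcription factor of vascular smooth muscle and heart, fell by 0.98 ± 0.20 (limma, adjusted p = 0.00745).

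SRF was the 1 regulator that passed at day 7 against day 0, falling by 1.20 ± 0.27 (limma, adjusted p = 0.0146), and this call was lost without replicate 6 of day 7 (0.0518) or replicate 4 (0.052) or 6 (0.0806) of day 0. The count at day 15 against day 0 was 1 in place of 3 without replicate 6 of day 0, where GATA6 passed and SRF (limma, adjusted p = 0.0529) and MYOCD (0.0637) did not, and 1 with no filter on low values. The count at day 7 was 4, all lower, with median-of-ratios scaling, 3 without replicate 5 of day 7 and 2 without replicate 5 of day 0. Over all 12268 genes tested, 1961, 765 and 1215 fell at day 7 in these fits, against 1090 with all libraries. At day 15 against day 0, 2255 fell with all libraries, 618 without replicate 6 of day 0 and 1423 of 22629 with no filter. FHL2, the most abundant of the list and a cofactor of serum response factor, had 120, 251 and 181 TPM at day 15 and 194, 203 and 245 TPM at day 0, and the ages overlapped. Of 14 genes of TGF-beta signalling, a pathway that raises smooth muscle genes in many cells, none passed in either direction at day 7 or day 15 against day 0 (limma), and their medians were 0.02 and -0.04. Under median-of-ratios scaling 2 of these 14 passed as higher in each of the 2 comparisons, and with the rescaled TPM 3 did at day 7 and 2 at day 15. Of all 12268 genes tested, 1833 rose at day 7 and 1877 at day 15 under median-of-ratios scaling. With the rescaled TPM 2355 and 1801 of 12244 rose, so these counts do not set the list apart.

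Other genes of smooth muscle and of the actin cytoskeleton were counted next, 17 of which were tested. At day 15 against day 0, 6 fell and 0 rose, with a median of -0.44, where 18.4% of all genes tested fell and 5.53% rose. PDLIM3, a PDZ and LIM protein of the actin anchor, had 2.14, 2.73 and 2.78 TPM at day 15 and 9.37, 19.2 and 12.4 TPM at day 0, a fall of 2.00 ± 0.32 (limma, adjusted p = 0.00256). ACTG2 fell by 1.83 ± 0.38 (limma, adjusted p = 0.00745). FLNA, filamin A, which crosslinks actin, fell by 1.13 ± 0.24 (limma, adjusted p = 0.00832), and MYL9, the smooth muscle regulatory light chain that MYLK phosphorylates, by 1.52 ± 0.37 (limma, adjusted p = 0.0132). CSRP1 and MYL6, named after their values were seen, passed as lower too.

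MYL9 had 107, 75.1 and 75.1 TPM at day 15 and 193, 316 and 239 TPM at day 0. Its call was lost without replicate 6 of day 0 (limma, adjusted p = 0.0562), where the count of this list was 3. With no filter on low values the count was 1, namely PDLIM3, which passed at day 15 under all 18 alternatives. CSRP1 lost its call without replicate 6 of day 15 (limma, adjusted p = 0.0563) or of day 0 (0.0747), and MYL6 on leaving out replicate 1 or 6 of day 15 or any library of day 0 (0.0543 to 0.143). At day 7 against day 0, PDLIM3 fell by 1.54 ± 0.32 (limma, adjusted p = 0.0107) and ACTG2 by 1.32 ± 0.38 (limma, adjusted p = 0.0350). That count of 2 was 1 without replicate 6 of day 7 or without replicate 4 or 6 of day 0, and 6 without replicate 5 of day 0. Over all genes tested, 354, 396 and 196 fell at day 7 without the first 3 of these libraries. Without replicate 5 of day 0, 1260 rose and 1215 fell. ACTG2 also lost its call at day 7 without replicate 2 of that age (limma, adjusted p = 0.0773) and with median-of-ratios scaling (0.0669). TPM1 was the most abundant of the list, at 3927 to 4281 TPM at day 15 and 5631 to 7301 TPM at day 0, and did not pass.

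Among 17 genes that control smooth muscle contraction (kinase, phosphatase, calcium-handling and receptor genes among them), none passed at day 7 against day 0 (limma), and 3 fell at day 15 against day 0, with a median of -0.31. The share that fell was again close to the 18.4% of all genes tested. Of these, CALM2, a calmodulin gene, fell by 0.71 ± 0.17 (limma, adjusted p = 0.0129). DAPK3, a kinase that acts on the myosin phosphatase and light chain, fell by 1.14 ± 0.27 (limma, adjusted p = 0.0114). The count of 3 was 5 without replicate 5 of day 0 and 1 without its replicate 6. CALM2 missed the threshold without replicate 6 of day 15 (limma, adjusted p = 0.0518). The count of 0 at day 7 was 3 without replicate 5 of day 0 and 1 without replicate 5 of day 7. It was 2 without replicate 1 of day 15 and 1 without its replicate 2, and 3 with median-of-ratios scaling and 4 with the rescaled TPM. Over all genes tested, 1260 rose and 1215 fell at day 7 without replicate 5 of day 0. With median-of-ratios scaling these were 1833 and 1961, and with the rescaled TPM 2355 and 1236. At day 15 against day 0, 2263 and 618 of all genes tested fell without replicates 5 and 6 of day 0. None of the genes of these 4 lists passed at day 15 against day 7 (limma).

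Markers of the cells that could carry or dilute these genes were followed in the same libraries. No marker list had a gene at 0 in every library. The summed level of 8 pericyte markers was 175 to 251 TPM at day 0, 245 to 280 TPM at day 7 and 188 to 196 TPM at day 15. RGS5, the most abundant of them, had 43.2, 64.8 and 56.3 TPM at day 0, 68.1, 81.8 and 89.0 TPM at day 7, with 50.5, 60.1 and 72.6 TPM at day 15. ABCC9, a potassium channel subunit, rose by 0.94 ± 0.20 at day 7 against day 0 (limma, adjusted p = 0.0110). At day 15 against day 0 it passed as higher and PDGFRB, the receptor that recruits mural cells, as lower. That last count of 2 was 0 without any of the day 0 libraries or replicate 6 of day 15, and 1 without replicate 2 of day 15 or of day 7. Over all genes tested, leaving out single libraries gave 198 to 969 higher and 618 to 2823 lower at day 15 against day 0.

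Markers of myofibroblasts, the activated fibroblasts that themselves express ACTA2, were higher at the later ages as a sum, though not in every gene. Their summed level, over 8 genes, was 40.1 to 78.0 TPM at day 0, 97.7 to 153 TPM at day 7 and 85.0 to 123 TPM at day 15. In the highest day 15 sum, that of replicate 1, 15.3 TPM came from COMP. This gene was not tested and stood at 0 and 0.199 TPM in replicates 2 and 6 of day 15. THY1, a surface protein of activated fibroblasts, had 43.5, 41.4 and 33.3 TPM at day 7 and 5.51, 13.6 and 6.41 TPM at day 0, a rise of 2.17 ± 0.27 (limma, adjusted p = 0.00151). At day 15 it was 2.06 ± 0.27 higher than at day 0 (limma, adjusted p = 0.00105), and both calls held under all 18 alternatives.

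In that list 4 genes rose and 0 fell in each of the 2 comparisons with day 0. Of all genes tested, 7.67% rose at day 7 and 5.53% at day 15. COL12A1 and CTGF passed in neither comparison, and CTGF had means of 21.8, 18.9 and 18.7 TPM at day 0, day 7 and day 15. POSTN, periostin, a matrix protein, rose by 1.27 ± 0.32 at day 7 against day 0 (limma, adjusted p = 0.0233). The count at day 7 was 2 without replicate 5 or 6 of day 7 or replicate 4 or 6 of day 0, and POSTN did not pass in these 4 fits (limma, adjusted p = 0.0543 to 0.104). The count at day 15 was 2 without replicate 6 of day 15 or replicate 4 of day 0, and 1 without replicate 6 of day 0. With no filter on low values it was 1 in both comparisons. Over all genes tested, 196 to 513 rose at day 7 in those 4 fits, against 941 with all libraries. At day 15, 198 to 320 rose in the fits named for that age, against 678. With no filter 256 and 244 of 22629 rose at day 7 and day 15. The median of the 7 tested genes of the list at day 15 against day 0 was 0.70, against -0.65 for the smooth muscle genes. On leaving out single libraries it was 0.626 to 1.06, the latter without replicate 5 of day 0.

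The other cell types are given by their summed levels. Fibroblast markers, 10 genes, summed to 1214 to 1813 TPM at day 0, 1833 to 2535 TPM at day 7 and 1414 to 1686 TPM at day 15. Endothelial markers, 9 genes, summed to 229 to 269, 328 to 359 and 206 to 248 TPM at these ages, and day 7 stood above both others. Heart muscle markers summed to 55806 to 62140, 42873 to 55252 and 44601 to 48199 TPM, day 0 being the highest. Much of that drop was in ACTC1, which fell from a mean of 13981 TPM at day 0 to 4367 TPM at day 15. CKM, the muscle creatine kinase, rose at day 15 against day 0, and the median change of the list was -0.03.

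Macrophage markers, 8 genes, summed to 65.3 to 79.7, 69.6 to 123 and 62.0 to 273 TPM, erythroid markers to 379 to 1240, 532 to 1177 and 401 to 625 TPM, and 3 epicardial markers to 9.14 to 14.5, 13.6 to 19.8 and 8.08 to 15.6 TPM. Their 3 ages overlapped. Between day 15 and day 0, 1 of 10 fibroblast genes tested rose and 1 fell, and of 9 endothelial genes 0 rose and 2 fell. Of 10 heart muscle genes 1 rose and 1 fell, and of 8 macrophage genes 2 rose and 0 fell. No erythroid or epicardial gene passed (limma). Among all genes tested 23.9% passed in this comparison, 5.53% higher and 18.4% lower. Leaving out single libraries gave counts of 1 to 2, 0 to 3, 2 to 3 and 0 to 4 for the first 4 lists and 0 for the last 2. Over all 12268 genes tested, the same fits gave 198 to 969 higher and 618 to 2823 lower.

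**Figure D5:**
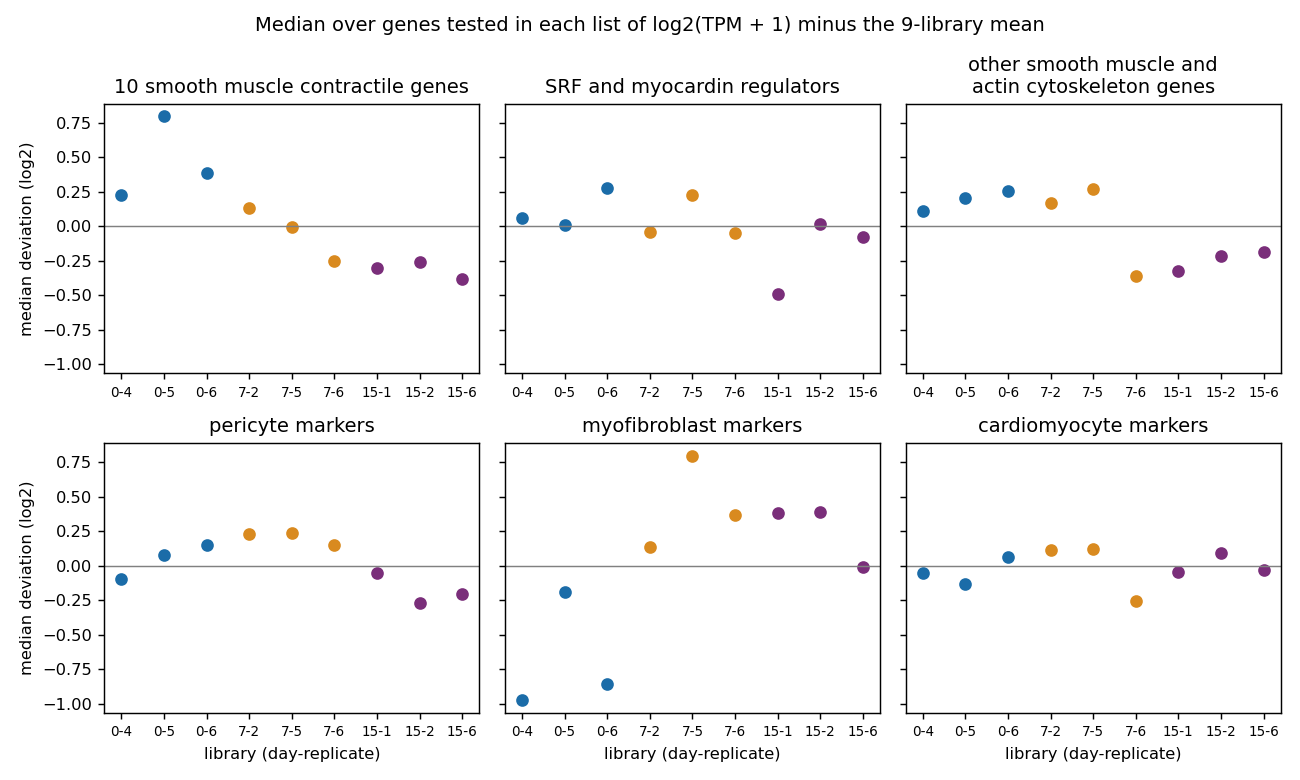
Median over the tested genes of 6 lists of log2(TPM + 1) minus the mean over the 9 libraries (points, 1 per library, labelled by day and replicate number and coloured by age). The median of the 10 smooth muscle contractile genes lies at -0.38 to -0.26 in the day 15 libraries and at 0.23 to 0.80 in the day 0 libraries, while that of myofibroblast markers is lowest at day 0.

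Relative to the summed pericyte markers of the same library, the mean level of CNN1 at day 15 was 0.245 times that at day 0, that of MYH11 0.389 times, that of TAGLN 0.493 times and that of ACTA2 0.556 times. Relative to heart muscle markers, a sum that includes the falling ACTC1, the corresponding values were 0.265, 0.433, 0.547 and 0.626. For these 4 genes, TPM2 and LMOD1, all day 15 libraries were below all day 0 libraries against each of 4 sums. The sums were those of pericyte, heart muscle, fibroblast and endothelial markers. The same 6 genes were lower without overlap in TPM itself, as 30.5% of all genes tested were, so the 4 sums are not separate results. How many of all genes tested were lower against these sums was not computed. SMTN was above against each of the 4 sums, by 1.59 times against pericyte markers and 1.77 times against heart muscle markers. MYLK, CALD1 and DES overlapped. These ratios are descriptions, with no test, and the part of cell numbers in any of the changes was not tested.

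The genes whose profile over the 9 libraries lay nearest to 4 of the smooth muscle genes were mostly not smooth muscle genes. Nearness was the root mean square difference of centred log2(TPM + 1), among 4787 other genes with a symbol and a mean of at least 10 TPM. For ACTA2 the nearest 3 included the RNA helicase DDX39A at 0.187 and the mitochondrial thymidine kinase TK2 at 0.198, while TAGLN came 56th and TPM2 80th. For TAGLN they were SMARCD3, a subunit of chromatin remodelling complexes, at 0.0998, the arginine methyltransferase PRMT1 at 0.140 and NT5C3B at 0.141, while TPM2 came 264th and ACTA2 287th.

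CNN1 had MYL9 as its nearest gene, at 0.309, followed by AIF1L at 0.437 and PYCR1, an enzyme of proline synthesis, at 0.459, and TAGLN came 16th. MYH11 had ACTA2 as its nearest gene, at 0.315, and RCN3 at 0.343 was also among its nearest 3. All these values are over 9 libraries of 3 ages that share their library totals, and genes that fell by similar amounts are near by construction.

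In a RefSeq annotation of the pig (Sscrofa11.1), MYH11, MYLK, CALD1 and LMOD1 each overlap 1 gene of a long non-coding RNA, none of which has a row under its symbol, and the other 6 overlap none. Whether the authors' quantification used strand is not stated in the sources used here, so reads of such a partner could not be told apart.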

How the data were processed

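Left ventricular tissue was flash frozen, RNA was purified on NucleoSpin columns and sequenced as TruSeq stranded mRNA libraries, per the labels' protocols. The authors deposited 1 table of TPM (22629 rows, 9 libraries). Per the submitters' processing notes, kallisto 0.43.1, HISAT2 2.0.5 and Trimmomatic 0.33 were used, in roles that the notes do not tell. Build, annotation and strand setting: not given in the sources used here. TPM keeps no depth, so no counting interval is given.

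The 12268 genes that reached 1 TPM in 3 or more libraries were taken to log2(TPM + 1) and fitted with limma 3.58.1 in R 4.3.3 (1 mean per age, mean-variance trend, 6 residual degrees of freedom), with Benjamini-Hochberg adjustment over all of them. Ratios were tested by exact permutation, over all 9 libraries, since 3 against 3 allow no two-sided p under 0.1. Named genes were the 10 genes, the most abundant and up to 3 called members of each list, the paired genes and the nearest 3 profiles; CSRP1 and MYL6 were added outside this rule. Some genes that the rule names are not reported here. CNN3 and CALM2 were matched through an Ensembl identifier. Promoter sequences were not used here. The 10 genes and the lists were chosen with earlier results of these data known. The alternatives were other pseudocounts, filters, scalings and fits, a replicate block and each library left out. The steps were tested on simulated data.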

Additional observations from a re-analysis of the deposited data

How the results depend on the processing

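The number of the 10 genes called at day 7 against day 0, 4, was 0 with no filter on low values and 0 to 4 on leaving out each library. It was 2 with median-of-ratios scaling and 2 with TPM rescaled without mitochondrial genes and the 20 most abundant genes. Over all 12268 genes tested, 941 rose and 1090 fell. With no filter these were 256 and 356 of 22629, and on leaving out each library 196 to 1260 and 196 to 1475. With median-of-ratios scaling they were 1833 and 1961, and with rescaled TPM 2355 and 1236 of 12244. At day 15 against day 0 the count of 6 was 4 to 6 on leaving out each library and 4 with no filter. Over all genes tested, 678 rose and 2255 fell there, 198 to 969 and 618 to 2823 on leaving out each library. With no filter 244 and 1423 of 22629 did. At day 15 against day 7 the count of the 10 genes was 0 under every alternative tried. For the difference of steps it was 0 to 1 on leaving out each library. No ratio passed under any alternative tried. Signs turned in differences that had not passed. At day 15 against day 7, MYLK was at 0.11 with median-of-ratios scaling, 0.0103 with rescaled TPM and 0.18 with the replicate block (-0.22 to 0.10 without single libraries). DES was at 0.115, 0.0075 and 0.0534 (-0.376 to 0.155), and TPM2 at -0.0562 with the block (-0.21 to 0.29). At day 15 against day 0, CALD1 was at 0.0688 and 0.084 with the 2 scalings (-0.325 to 0.0166). For the difference of steps, CNN1 was at -0.87 to 0.96 and DES at -0.257 to 0.805 without single libraries, and the day 15 minus day 0 ratios were -0.685 to 0.0662 for MYLK to MYLK3 and -0.274 to 0.173 for DES to VIM. The cause was not tested.

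Replicate numbers recur between ages, but nothing in the labels ties them to an animal or litter, and the correlations of same-numbered libraries were -0.213 to 0.170, so the numbers were not taken to pair libraries. Not every library correlated best with its own number. With the replicate block, 3 genes were called at day 7 against day 0, 0 at day 15 against day 7 and 4 at day 15 against day 0. Over all 12268 genes tested, 325 rose and 532 fell at day 7 against day 0 with the block, and 396 and 523 at day 15 against day 0. Without the block these were 941 and 1090, and 678 and 2255. At day 15 against day 0 the counts called were 0 in place of 3 for the regulators and for contraction control, 3 in place of 6 for other smooth muscle genes and 2 in place of 4 for myofibroblast markers. Single-gene fits without 1 library assume that the remaining pair varies like the other ages. Depth is unknown, so it is not known how far counting error limits LMOD1 and MYH11.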
